A study of Danio rerio with 12 samples.

Results

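The LWS1 and LWS2 cones of the lws:PAC(H) line were set, together, against retinal cells without tdTomato (tdTomato-) of the thrb2:tdTomato line by bulk RNA-Seq. The members were taken by sample label, and were 6 libraries of sorted LWS cones (3 of LWS1 and 3 of LWS2 cones) set against 3 libraries of tdTomato- cells, which is 9 of the 12 libraries of the series. The other 3 libraries, tdTomato+ cones of the thrb2:tdTomato line, entered no test here, and their levels are given beside the others because they share a fish line with the tdTomato- cells and a cell population with the LWS cones. All fish were adult zebrafish labelled WT, kept in the dark until collection near light onset. In lws:PAC(H) fish a PAC clone carries a GFP cassette behind the lws1 promoter and an RFP (dsRedExpress) cassette behind the lws2 promoter, and LWS1 cones were collected as GFP+ and LWS2 cones as RFP+ cells. In thrb2:tdTomato fish the promoter of thyroid hormone receptor beta 2 drives tdTomato in LWS cones, and the RPE was dissected off before the sort. Cells of this line were sorted by tdTomato intensity and by scatter. The tdTomato- fraction therefore holds retinal cells without the reporter, and not necessarily all cells that remain when LWS cones are sorted away. GEO labels the tdTomato- libraries with the cell type cone photoreceptor as well, although their treatment label names retinal cells. Fish line and cell population changed together in this comparison and cannot be told apart by it, and nothing in the labels says whether replicates came from separate fish, so that p-values measure the spread between these libraries.

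Cones are the photoreceptors of daylight and color vision. Zebrafish have cones for long (LWS), middle (RH2), short (SWS2) and ultraviolet (SWS1) wavelengths, and rods for dim light. In all of them an opsin that has absorbed light activates the G protein transducin, transducin activates a cGMP phosphodiesterase, and the drop in cGMP closes a cyclic nucleotide-gated channel. Kinases and arrestin then shut the opsin off, RGS9 speeds the shutdown of transducin, and guanylate cyclases with their calcium sensors restore cGMP. Many of these proteins are made from separate rod and cone genes, and the extra genome duplication of teleost fish left pairs of paralogues that can be divided among cone types. LWS cones carry the tandem opsin genes opn1lw1 and opn1lw2, and need the thyroid hormone receptor thrb to form.

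Total counts were 694158 to 3105062 in the LWS libraries and 459226 to 3189337 in the tdTomato- libraries, with replicate 1 of the tdTomato- cells the smallest of all. A floor of 3 counts was worth 0.676 to 4.67 CPM (counts scaled to a common, normalized library size) in LWS libraries and 11.1, 1.31 and 1.92 CPM in tdTomato- replicates 1, 2 and 3. Mitochondrially encoded genes took 12.9 to 29.7% of the counts in LWS libraries and 53.4 to 54.3% in tdTomato- libraries, and 22.0 to 71.7% in tdTomato+ libraries. Replicates of each group differed by more than counting noise (chi-square over degrees of freedom of 6.24 to 26.7 for pairs of replicates). Each library was treated as 1 sample, although this spread does not show that replicates were separate fish.

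Of 9700 features tested with edgeR's quasi-likelihood test, 378 (3.90%) were higher and 808 (8.33%) lower in LWS cones, for a call that needed an adjusted p (FDR, Benjamini-Hochberg) below 0.05 together with a fold change above 2 in the average of the 2 cone types over tdTomato- cells. In LWS1 and LWS2 cones alike, 175 features (1.80% of those tested) were called higher and 371 (3.82%) lower. All 6 LWS libraries lay above all 3 tdTomato- libraries for 759 features (7.82%) and below them for 786 (8.10%). This held for 331 of the 378 features called higher and 547 of the 808 called lower. LWS2 and LWS1 cones differed from each other in 63 features (0.649%), and 17 of the 1186 features called in the average differed this way. The LWS1 and LWS2 comparisons share the tdTomato- libraries, so a feature's values in both are side by side and not independent. The counts depended on single libraries, since 241 features were higher without LWS2 replicate 3 and 221 without tdTomato- replicate 2. Features higher in each cone type then numbered 82, 106 and 78 without LWS2 replicates 1, 2 and 3, and 268, 88 and 109 without tdTomato- replicates 1, 2 and 3. Features lower in each cone type numbered 212 without LWS1 replicate 1, 208 without LWS2 replicate 3, and 217 and 226 without tdTomato- replicates 2 and 3.

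**Figure D1:**
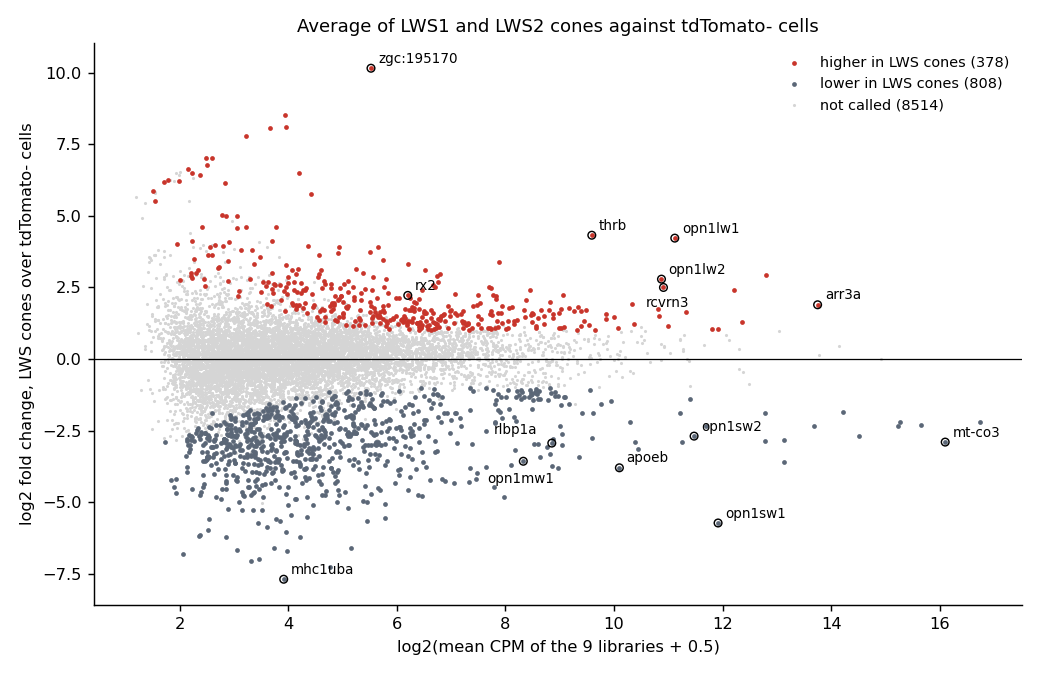
Each point is 1 of the 9700 features tested, with its log2 mean level over the 9 libraries (CPM + 0.5) on the x axis and the log2 fold change of LWS cones (average of LWS1 and LWS2) over tdTomato- cells on the y axis. The 378 features called higher are red, the 808 called lower are dark grey, and circles mark named genes such as thrb (4.32) and opn1sw1 (-5.73).

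The LWS opsins and thrb, by which these cones are known, were higher in LWS cones. Promoters of these genes drive the reporters by which the cells were sorted, so these differences are no result independent of the sort. Each of the opsin genes is present as 2 features in the annotation, near-identical copies that reads can be split between, and all 4 were called higher. The longer-wavelength opsin opn1lw1 stood at 13396, 16755 and 19041 CPM in LWS1 cones and 5463, 2605 and 4057 CPM in LWS2 cones, against 167, 948 and 2080 CPM in tdTomato- cells, for the more abundant feature. All 6 LWS libraries were above all 3 tdTomato- libraries, and the log2 fold change was 2.92 ± 0.58 (SE; FDR 0.00388). Its second feature had 5729, 4476 and 5529 CPM in LWS1 cones and 1745, 871 and 1278 CPM in LWS2 cones, against 0, 116 and 279.6 CPM in tdTomato- cells (log2 fold change 4.22 ± 0.74, FDR 0.00159). For opn1lw2 the groups overlapped. Its more abundant feature had 2994, 992 and 7293 CPM in LWS1 cones and 10684, 8818 and 8584 CPM in LWS2 cones, against 141, 1161 and 2002 CPM in tdTomato- cells (log2 fold change 2.42 ± 0.69, FDR 0.032), and LWS1 replicate 2 lay under tdTomato- replicates 2 and 3. This call was lost without LWS1 replicate 3, LWS2 replicate 1 or tdTomato- replicate 2. The second opn1lw2 feature gave 2.79 ± 0.58 (FDR 0.00497). By cone type, opn1lw1 was called in LWS1 cones for both features and in LWS2 cones for the second one, and opn1lw2 in LWS2 cones only, while the LWS2 over LWS1 difference did not pass for any of the 4 features. The nuclear receptor gene thrb had 1274, 1396 and 913 CPM in LWS1 cones and 1033, 1084 and 1082 CPM in LWS2 cones, against 14.8, 37.6 and 103 CPM in tdTomato- cells (log2 fold change 4.32 ± 0.47, FDR 5.01e-05). The tdTomato+ cones had 622, 1112 and 1394 CPM, with replicate 1 below the LWS libraries and the others within their range.

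As shares of all counts, opn1lw1 and opn1lw2 together took 2.67 ± 0.350% in LWS libraries (SD, n = 6, 2.26 to 3.11%) and 0.184 ± 0.168% in tdTomato- libraries (SD, n = 3, 0.0226 to 0.358%). The lowest of these, tdTomato- replicate 1, has a 95% Wilson interval of 0.0187 to 0.0274%, which covers counting error only. The 6 opsins of the other cones took 0.565 ± 0.166% in LWS libraries (n = 6) and 1.76 ± 0.693% in tdTomato- libraries (n = 3). The groups did not overlap in either share, and each two-sided exact permutation test of 6 against 3 libraries gave p = 0.0238, the smallest it allows (0.0286 adjusted over 6 shares). For the opn1lw share the sort by lws and thrb2 reporters set the direction beforehand. This sort took LWS cones into the LWS libraries and out of the tdTomato- libraries, so the other opsins' share is not independent of it either. Neither p-value is independent evidence. Taken over counts without the 13 mitochondrially encoded genes, the opn1lw share was 3.34% in LWS and 0.400% in tdTomato- libraries. In bulk samples fewer cells of a type and less RNA per cell cannot be told apart, here and below.

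**Figure D2:**
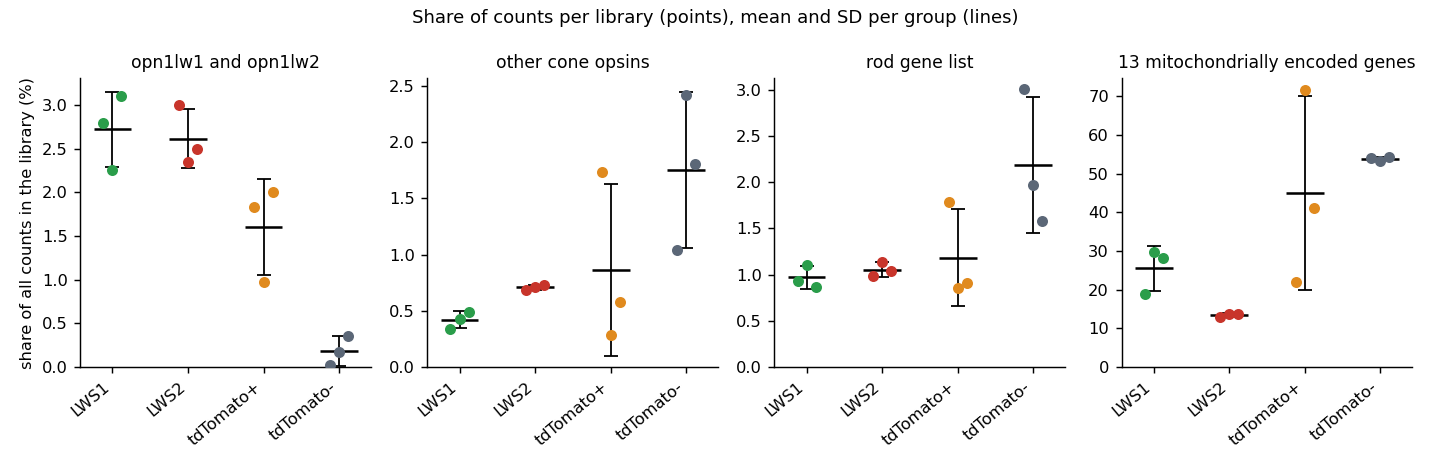
Share of all counts of each library (percent, linear axes from 0) taken by opn1lw1 and opn1lw2, the 6 other cone opsins, the rod list and the 13 mitochondrially encoded genes. Points are the 3 libraries of each group, with the group mean and SD as black lines: opn1lw shares lie above 2.2% in all LWS libraries and below 0.4% in all tdTomato- libraries.

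Opsins of the other cone types were not equally low. The ultraviolet opsin opn1sw1 had 112, 437 and 209 CPM in LWS1 cones and 155, 226 and 147 CPM in LWS2 cones, against 6499, 16781 and 10241 CPM in tdTomato- cells (log2 fold change -5.73 ± 0.40, FDR 4.08e-06). The blue opsin opn1sw2 ranged over 486 to 1481 CPM in LWS libraries and 2411 to 9783 CPM in tdTomato- libraries (-2.69 ± 0.41, FDR 0.000568). Of the 4 tandem green opsins, opn1mw1 had 23.8, 5.4 and 48.3 CPM in LWS1 cones and 264, 20.7 and 214 CPM in LWS2 cones, against 1565, 239 and 509 CPM in tdTomato- cells (-3.57 ± 0.69, FDR 0.00315), and LWS2 replicate 1 overlapped tdTomato- replicate 2. The next gene of the array, opn1mw2, ranged over 747 to 2938 CPM in LWS libraries and 3969 to 5067 CPM in tdTomato- libraries (-1.39 ± 0.27, FDR 0.0037). The remaining members, opn1mw3 (-0.42 ± 0.41, FDR 0.579) and opn1mw4 (-1.58 ± 0.70, FDR 0.176), did not pass, with 544 to 2223 CPM of opn1mw3 in LWS libraries and 1280 to 1724 CPM in tdTomato- libraries. Green opsin copies are similar in sequence, and how reads were divided among them is not given in the sources used here.

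The cone phototransduction genes were called higher more often than lower in LWS cones. Of 37 features of this list tested, 18 were called higher and 6 lower in the average (background 3.90% and 8.33% of all features), and 11 were higher and 4 lower in each cone type (background 1.80% and 3.82%). The promoters of opn1lw1, opn1lw2 and thrb drive the reporters by which the cells were sorted, so the 4 opn1lw features, which count among the 18, are no result independent of the sort. The genes opn1lw1, opn1lw2, gngt2a and guca1d each count more than once among the 18, so these features stand for fewer genes. The list's median log2 fold change was 1.05, against 0.04 for all 9700 features. Without each library in turn, 14 to 19 were higher and 4 to 8 lower. Names in capitals are ortholog names, where the zebrafish paralogue's letter was not resolved.

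Among the steps that carry the signal forward, the transducin and phosphodiesterase genes differed by subunit. The cone transducin alpha gene GNAT2 ranged over 8245 to 13549 CPM in LWS libraries and 3338 to 6489 CPM in tdTomato- libraries, without overlap, and its log2 fold change of 0.96 ± 0.26 (FDR 0.0271) fell short of a 2-fold change. The cone beta subunit gene gnb3b did not pass (0.35 ± 0.32, FDR 0.567). The gamma subunit gngt2a rose, with 4918, 4796 and 5359 CPM in LWS1 cones and 2090, 1518 and 1576 CPM in LWS2 cones, against 794, 969 and 1037 CPM in tdTomato- cells (1.66 ± 0.24, FDR 0.000395). Its second feature gave 1.34 ± 0.30 (FDR 0.00772). The paralogue gngt2b gave -0.45 ± 0.24 (FDR 0.254), at 2680 to 7077 CPM in LWS libraries and 4807 to 7334 CPM in tdTomato- libraries. The catalytic subunit of the cone phosphodiesterase, PDE6C, had 6436, 6871 and 7539 CPM in LWS1 cones and 6387, 6254 and 5765 CPM in LWS2 cones, against 2107, 2447 and 3347 CPM in tdTomato- cells (1.31 ± 0.24, FDR 0.00231). Its inhibitory subunit gene pde6ha was abundant in both populations, at 20639 to 46786 CPM in LWS libraries and 22970 to 36350 CPM in tdTomato- libraries (0.02 ± 0.26, FDR 0.978), and its groups overlapped. A second inhibitory subunit feature, PDE6H, was lower in LWS cones, at 73 to 277 CPM, against 375 to 727 CPM in tdTomato- cells (-1.74 ± 0.31, FDR 0.00185).

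Cyclase and calcium sensor genes were called in both directions, while the channel gene cngb3.1 and the exchanger gene were higher. The channel beta subunit cngb3.1 had 105, 129.6 and 48.3 CPM in LWS1 cones and 61.7, 72 and 82 CPM in LWS2 cones, against 40.8, 12.7 and 14.7 CPM in tdTomato- cells (2.13 ± 0.46, FDR 0.00661). Its paralogue cngb3.2 had 61.1 to 95 CPM in LWS1 cones and 167 to 234 CPM in LWS2 cones, against 156 to 273 CPM in tdTomato- cells (-0.93 ± 0.26, FDR 0.0307, short of a 2-fold change). Neither feature of the channel alpha subunit CNGA3 passed (1.2 ± 0.42, FDR 0.0764, and 0.50 ± 0.32, FDR 0.367). The cone sodium-calcium-potassium exchanger slc24a2 was higher at 1421 to 1876 CPM in LWS libraries, against 456 to 831 CPM in tdTomato- libraries (1.23 ± 0.25, FDR 0.00471). The guanylate cyclase gucy2d was higher at 1105 to 1508 CPM in LWS libraries, against 423 to 508 CPM in tdTomato- libraries (1.47 ± 0.24, FDR 0.000872), and the cyclase gucy2f lower at 10.47 to 27.3 CPM, against 44.5 to 91.9 CPM (-2.05 ± 0.35, FDR 0.00131). The genes of guanylate cyclase activating proteins, which sense calcium for the cyclases, were split. The gene guca1g had 41.3, 63 and 21.8 CPM in LWS1 cones and 33.8, 25.2 and 24.8 CPM in LWS2 cones, against 3.71, 1.31 and 10.9 CPM in tdTomato- cells (2.64 ± 0.63, FDR 0.0128), a call lost without tdTomato- replicate 2. Both features of guca1d were higher (3.14 ± 0.81 and 2.3 ± 0.62), also with calls lost without tdTomato- replicate 2 or LWS2 replicate 3, and without tdTomato- replicate 3 for the first. In contrast, guca1e was lower (-1.22 ± 0.26, FDR 0.00682, lost without tdTomato- replicate 2 or 3), and the abundant guca1c overlapped at 1436 to 5007 CPM in LWS libraries and 886 to 2752 CPM in tdTomato- libraries (0.33 ± 0.32, FDR 0.583).

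Genes that shut the response off were split by paralogue. Recoverin 3 (rcvrn3), a calcium sensor of the opsin kinase, had 3899, 2624 and 3579 CPM in LWS1 cones and 2567, 1395 and 1898 CPM in LWS2 cones, against 575, 401 and 391 CPM in tdTomato- cells (2.50 ± 0.30, FDR 9.98e-05). The cone opsin kinase feature GRK7 had 2170 to 2557 CPM in LWS libraries and 594 to 1039 CPM in tdTomato- libraries (1.51 ± 0.25, FDR 0.00108), whereas its paralogue grk7b had only 1.75, 9.9 and 1.56 CPM in LWS1 cones and 4.04, 5.13 and 6.98 CPM in LWS2 cones, against 26, 177 and 176 CPM in tdTomato- cells (-4.72 ± 0.55, FDR 7.64e-05). Cone arrestin behaved likewise. The arrestin gene arr3a had 21767, 23151 and 26600 CPM in LWS1 cones and 16066, 10298 and 12058 CPM in LWS2 cones, against 8090, 2712 and 3314 CPM in tdTomato- cells (1.90 ± 0.35, FDR 0.0026). Another arrestin feature, ARR3, was at 82.9 to 343 CPM in LWS libraries and 489.6 to 1510 CPM in tdTomato- libraries (-2.79 ± 0.38, FDR 0.000271). The groups did not overlap for any of these 5 genes, in opposite directions within each pair. One RGS9 feature was higher (1.49 ± 0.31, FDR 0.00497, 410.3 to 643 CPM in LWS and 111 to 293 CPM in tdTomato- libraries). The other, much less abundant RGS9 feature was lower (-2.09 ± 0.55, FDR 0.0229), a call lost without any 1 of the LWS2 libraries or tdTomato- replicate 2. Phosducin, which binds transducin beta and gamma, had one feature called higher (1.05 ± 0.30, FDR 0.0314, lost without LWS1 replicate 3, LWS2 replicate 1 or 3, or tdTomato- replicate 1 or 3), and the other PDC feature did not pass (-0.84 ± 0.35). The RGS9 anchor gene rgs9bp (-1.81 ± 0.57, FDR 0.0517), the opsin kinase grk1b (0.50 ± 0.41, FDR 0.506), the calcium sensor calm1b (0.63 ± 0.30, FDR 0.207) and the phosphatase ppef2a (0.76 ± 0.28, FDR 0.0973) did not pass.

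**Figure D3:**
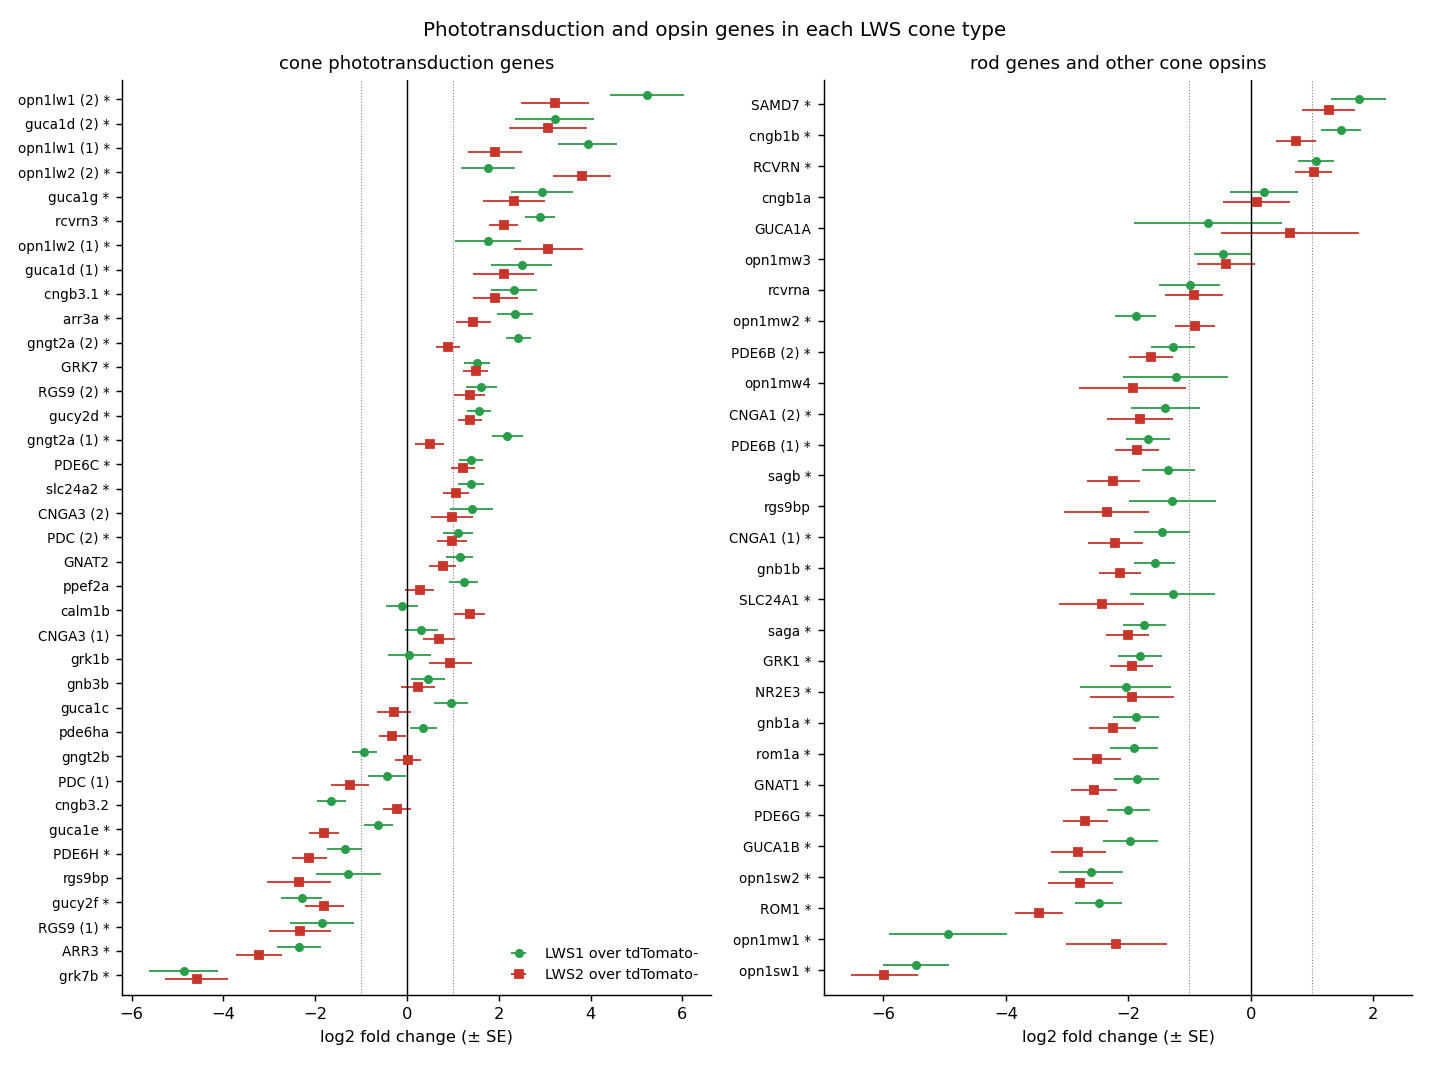
Log2 fold change (± SE) of LWS1 cones (green circles) and of LWS2 cones (red squares) over tdTomato- cells for the 37 cone phototransduction features tested, on the left, and for rod genes and the other cone opsins, on the right. An asterisk marks features called in the average, numbers in parentheses tell apart features with the same name, and dotted lines mark a 2-fold change: arr3a and GRK7 lie on the right of 0 and ARR3 and grk7b on the left in both cone types.

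Rod genes were lower in LWS cones. Of 25 features of the rod list tested, 18 were called lower and 3 higher in the average (8.33% and 3.90% of all features), with a median log2 fold change of -1.85. Without each library in turn, 13 to 18 were lower and 0 to 3 higher. In each cone type 12 were lower and 1 higher (3.82% and 1.80% of all features). The rod disc protein feature ROM1 had 79.1, 226 and 164 CPM in LWS1 cones and 60.2, 106 and 71.2 CPM in LWS2 cones, against 964, 958 and 695 CPM in tdTomato- cells (-2.97 ± 0.30, FDR 3.94e-05). Rod transducin alpha GNAT1 had 280.4 to 1021 CPM in LWS and 2181 to 2995 CPM in tdTomato- libraries (-2.21 ± 0.30, FDR 0.00022), and the rod phosphodiesterase inhibitor PDE6G 116 to 395 CPM in LWS and 932 to 1232 CPM in tdTomato- libraries (-2.35 ± 0.29, FDR 0.000116). Lower too were the rod transducin beta genes gnb1a (-2.07) and gnb1b (-1.85), rod arrestins saga (-1.87) and sagb (-1.79, with LWS1 replicate 2 above tdTomato- replicate 3), the kinase GRK1 (-1.88) and both PDE6B features (-1.45 and -1.77). GUCA1B, both CNGA1 features and SLC24A1 were called lower as well. The SLC24A1 call was lost without LWS1 replicate 1 or 3, or any 1 of the LWS2 or tdTomato- libraries. The call of 1 CNGA1 feature was lost without tdTomato- replicate 3. That of the other was lost without LWS1 replicate 1, LWS2 replicate 1 or 3, or any 1 of the tdTomato- libraries. The rod transcription factor NR2E3 (-1.99 ± 0.58, FDR 0.0358) did not overlap between groups, but its call was lost without LWS1 replicate 1 or 3, LWS2 replicate 1 or 3, or tdTomato- replicate 2 or 3. Rod transcripts were therefore lower but not at 0 in the sorted LWS cones, and rod genes of the list took 0.869 to 1.14% of their counts, against 1.58 to 3.00% in tdTomato- libraries. Over counts without the 13 mitochondrially encoded genes this share was 1.13 to 1.57% in LWS libraries and 3.45 to 6.52% in tdTomato- libraries. The 3 members that were higher were the recoverin feature RCVRN (1.05 ± 0.27, FDR 0.0191), the channel subunit cngb1b (1.11 ± 0.30, FDR 0.0232) and SAMD7 (1.52 ± 0.40, FDR 0.0227). All 3 calls were lost without tdTomato- replicate 2, those of cngb1b and SAMD7 also without tdTomato- replicate 3, that of RCVRN without tdTomato- replicate 1, that of cngb1b without LWS2 replicate 3 and that of SAMD7 without LWS2 replicate 1.

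Among 33 features of photoreceptor transcription factors tested, 5 were higher and 4 lower in the average (3.90% and 8.33% of all features), the list's median log2 fold change was 0.04, as over all features, and beside thrb the higher ones were rx2, six7, CRX and SAMD7. The retinal homeobox gene rx2 had 165, 104 and 82.6 CPM in LWS1 cones and 110.5, 54.1 and 77.7 CPM in LWS2 cones, against 22.3, 21.9 and 19.2 CPM in tdTomato- cells (2.22 ± 0.37, FDR 0.00117). The homeobox gene six7, needed in zebrafish for middle wavelength opsins, had 803, 573 and 513 CPM in LWS1 cones and 529.6, 337 and 403 CPM in LWS2 cones, against 137, 159 and 177 CPM in tdTomato- cells (1.70 ± 0.27, FDR 0.000777). The photoreceptor regulator CRX had 88.8 to 185 CPM in LWS and 40.8 to 57.7 CPM in tdTomato- libraries (1.55 ± 0.31, FDR 0.004). The groups did not overlap for these 3 genes. The lower ones were LHX9 (-3.53 ± 0.79, 0 to 3.12 CPM in LWS libraries, at or near the floor), NR2E3, SAMD11 (-1.60 ± 0.34, lost without tdTomato- replicate 2) and neurod4 (-1.38 ± 0.38, lost without LWS1 replicate 1, any 1 of the LWS2 libraries, or tdTomato- replicate 2 or 3). Of these only SAMD11 was lower in each cone type. LHX9 and neurod4 were called in LWS2 cones and not in LWS1 cones. For neurod4 the values were -2.25 ± 0.47 (FDR 0.00695) in LWS2 cones and -0.50 ± 0.46 (FDR 0.557) in LWS1 cones, and its groups overlapped. Without LWS1 replicate 2, 7 features were lower, and without tdTomato- replicate 2 or 3, 2 were.

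Cones release glutamate continuously from ribbon synapses, and of 44 features of synaptic release tested, 9 were higher and 5 lower (3.90% and 8.33% of all features), and 6 were higher in each cone type and 0 lower (1.80% and 3.82% of all features). The share lower was near that of all features. The calcium channel subunit cacna2d4a had 118.7, 71.1 and 76.3 CPM in LWS1 cones and 49.5, 42 and 38.5 CPM in LWS2 cones, against 0, 3.06 and 7.66 CPM in tdTomato- cells for 1 of its features (3.75 ± 0.51, FDR 0.000244). The active zone scaffold pcloa (piccolo) had 386, 348 and 458 CPM in LWS1 cones and 439, 472 and 547 CPM in LWS2 cones, against 163, 94.9 and 70.9 CPM in tdTomato- cells (2.06 ± 0.30, FDR 0.000432). The complexin of ribbon synapses cplx4a (1.76 ± 0.35, FDR 0.00364) and the vesicle protein sv2ba (1.32 ± 0.25, FDR 0.00308) were higher without overlap. The 5 lower ones were SV2B (-2.85), VAMP8 (-2.86), SYT11 (-2.15), vamp1a (-2.07) and cplx4c (-1.81). The count of lower features was 3 without LWS1 replicate 3, 1 without LWS2 replicate 1 or 3 or tdTomato- replicate 3, and 0 without tdTomato- replicate 2. Of 56 features of the cilium and outer segment, 6 were higher and 2 lower (3.90% and 8.33% of all features), and the lower ones were the rod disc genes ROM1 and rom1a. In each cone type 0 were higher and 2 lower (1.80% and 3.82% of all features). The higher count ranged over 1 to 12 when single libraries were left out, with 1 without tdTomato- replicate 3, 2 without LWS2 replicate 3, 3 without LWS1 replicate 1 or 3, LWS2 replicate 1 or 2, or tdTomato- replicate 2, 10 without LWS1 replicate 2 and 12 without tdTomato- replicate 1.

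Of 36 features of glycolysis and creatine kinases, 5 were higher and 3 lower (3.90% and 8.33% of all features), so the share lower was that of all features. Lactate dehydrogenase ldhbb had 293 to 418 CPM in LWS libraries and 77.9 to 173 CPM in tdTomato- libraries (1.32 ± 0.28, FDR 0.00596), and glycogen phosphorylase pygmb 469 to 752 CPM in LWS and 122 to 262 CPM in tdTomato- libraries (1.42 ± 0.27, FDR 0.00308). The enolase gene eno1a was lower, with 352, 515 and 611 CPM in LWS1 cones and 232, 274 and 261 CPM in LWS2 cones, against 1640, 1229 and 1038 CPM in tdTomato- cells (-1.87 ± 0.24, FDR 0.000164). The mitochondrial creatine kinase ckmt2b was lower as well (-2.02 ± 0.27, FDR 0.000217), while the cytosolic creatine kinase ckba was higher (3.91 ± 0.54, FDR 0.000271). The other members called were PFKL (2.59, lost without tdTomato- replicate 2) and ENO3 (1.08, lost without LWS1 replicate 1, LWS2 replicate 1 or 3, or tdTomato- replicate 1 or 3), both higher, and the glucose transporter SLC2A1 (-2.10, lost without any 1 of LWS1 replicate 1 or 3, LWS2 replicate 1 or 3, or tdTomato- replicate 2 or 3), lower. Without LWS1 replicate 2 the count of lower features was 6. All 13 mitochondrially encoded genes were lower in the average and 12 (not mt-nd6) in each cone type, with log2 fold changes of -2.90 to -1.85. The cytochrome oxidase subunit mt-co3 had 22112, 40112 and 43518 CPM in LWS1 cones and 14561, 12378 and 13146 CPM in LWS2 cones, against 238970, 139420 and 108430 CPM in tdTomato- cells (-2.90 ± 0.29, FDR 3.38e-05). The tdTomato+ libraries held 33397, 199340 and 53257 CPM of it and spanned the other groups. The share of mitochondrial counts moved with the groups throughout this comparison, and its part in the other results was not tested beyond the fit without these 13 genes, which called 360 features higher and 811 lower.

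The 12 called features with a gene name and the largest change in each direction, among those without overlap, are given next. A name was present for 341 of the 378 features called higher and 770 of the 808 called lower, and the others were not ranked. First among those higher was zgc:195170, a gene without an assigned function here, with 50, 62.1 and 62.3 CPM in LWS1 cones, 46.2, 82.3 and 107 CPM in LWS2 cones, and 0 counts in all 3 tdTomato- libraries. It was at least 14.3-fold higher against a floor of 3 counts per library (FDR 3.38e-05), and had 0 counts in all 3 tdTomato+ libraries as well. So its counts came from lws:PAC(H) libraries alone, although tdTomato+ cells were sorted as LWS cones too. The annexin anxa14 had 18.6, 36 and 21.8 CPM in LWS1 cones and 27.9, 35.2 and 20.3 CPM in LWS2 cones, with 2.51, 5.99 and 1.1 CPM in tdTomato+ cones and 0, 0.437 and 0 CPM in tdTomato- cells. With 1 count over the tdTomato- libraries, its ratio of 111 had a counting interval of 19.9 to 4408. The GTPase-activating protein feature ARHGAP11A had 26.2, 23.4 and 26.5 CPM in LWS1 cones and 39.3, 29.6 and 41.9 CPM in LWS2 cones, with 23.7, 5.99 and 4.94 CPM in tdTomato+ cones and 0, 0 and 1.28 CPM in tdTomato- cells. The transcription factor glis3 had 20.9, 6.3 and 10.9 CPM in LWS1 cones and 26.1, 30.1 and 22.5 CPM in LWS2 cones, with 2.15, 0 and 2.2 CPM in tdTomato+ cones and 0, 0.874 and 0.638 CPM in tdTomato- cells, so that its tdTomato+ libraries all lay below the lowest LWS library. The glycosyltransferase ext1c was found in both lines' cones, with 9.31, 19.8 and 9.35 CPM in LWS1 cones, 5.14, 7.46 and 9.01 CPM in LWS2 cones, 16.9, 9.41 and 10.4 CPM in tdTomato+ cones and 0, 0 and 0.638 CPM in tdTomato- cells. The BMP antagonist chrd had 16.9, 9.9 and 9.35 CPM in LWS1 cones, 4.04, 3.5 and 6.53 CPM in LWS2 cones and 0 counts in all tdTomato- libraries, at least 1.75-fold higher (FDR 0.00419). The remaining ones were si:rp71-1h20.9, at least 1.46-fold higher against a floor of 3 counts per library, and MARCHF5, slc12a7a, znf1156, nlgn4xb and thrb. Calls of si:rp71-1h20.9, znf1156 and nlgn4xb were lost without tdTomato- replicate 2, and those of MARCHF5 and slc12a7a without tdTomato- replicate 3.

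**Figure D4:**
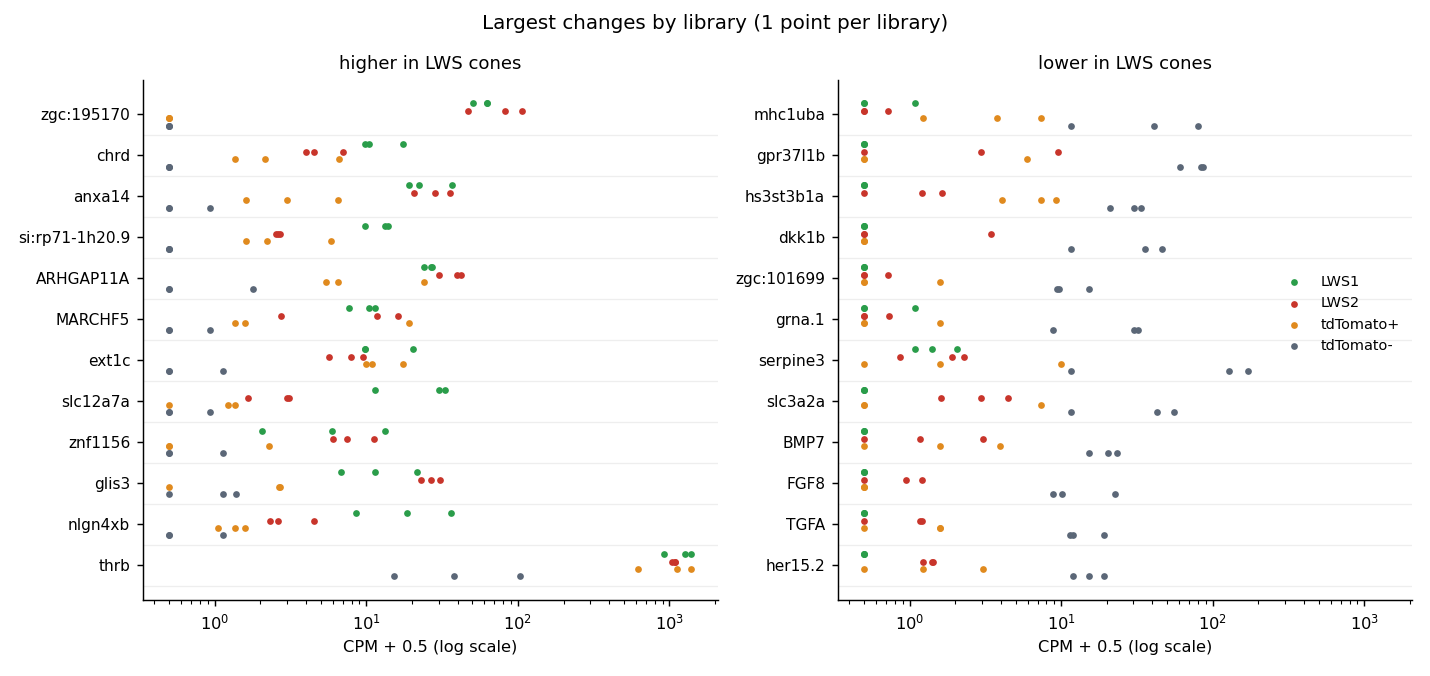
Level (CPM + 0.5, log scale) of the 12 genes with the largest change in each direction whose groups did not overlap, among called features with a gene name. There is 1 point per library and 1 color per group, in the order LWS1, LWS2, tdTomato+ and tdTomato- from top to bottom within each gene. Points at 0.5 are 0 counts: zgc:195170 is there in all 6 thrb2:tdTomato libraries.

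Among the largest decreases, mhc1uba, an MHC class I gene, had 0.582, 0 and 0 CPM in LWS1 cones and 0, 0 and 0.225 CPM in LWS2 cones, with 0.717, 6.84 and 3.3 CPM in tdTomato+ cones and 11.1, 40.2 and 79.2 CPM in tdTomato- cells (-7.69 ± 0.77, FDR 3.38e-05). The Wnt inhibitor dkk1b had 0, 0 and 0 CPM in LWS1 cones and 0, 0 and 2.93 CPM in LWS2 cones, against 11.1, 45.9 and 35.12 CPM in tdTomato- cells. The growth factor features BMP7, FGF8 and TGFA had 0 counts in all LWS1 libraries and at most 2.56, 0.699 and 0.699 CPM in LWS2 libraries, against 14.8 to 22.7, 8.3 to 22.3 and 10.9 to 18.5 CPM in tdTomato- libraries. The Notch target her15.2 (11.5 to 18.5 CPM in tdTomato- libraries) and the receptor gpr37l1b (60 to 85.3 CPM) were likewise at 0 counts in all LWS1 libraries. The serpin serpine3 had 0.582, 0.9 and 1.56 CPM in LWS1 cones and 0.367, 1.4 and 1.8 CPM in LWS2 cones, against 11.1, 171 and 127 CPM in tdTomato- cells. Where LWS libraries are near 0, the size of the fitted change depends on the prior count, and the levels are the better guide. The last 4 were hs3st3b1a, zgc:101699, grna.1 and slc3a2a.

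Genes of Muller glia, the main glial cell of the retina, were lower in LWS cones but still detected. Of 52 features of this list tested, 39 were called lower (background 8.33%) and 30 in each cone type (background 3.82%), and the median log2 fold change was -2.93. Without each library in turn 35 to 40 were lower. The 86 features of the list took 0.656 to 0.987% of the counts in LWS libraries and 0.937 to 1.96% in tdTomato- libraries, where replicate 1 of the tdTomato- cells lay within the LWS range. Over counts without the 13 mitochondrially encoded genes the shares were 0.754 to 1.404% in LWS libraries and 2.03 to 4.202% in tdTomato- libraries, without overlap. The part of this share in the other results was not tested. Muller glia recycle glutamate and carry retinoids and water. The glutamine synthetase gene glulb had 29.7, 18 and 34.3 CPM in LWS1 cones and 16.1, 42.9 and 20.1 CPM in LWS2 cones, against 118.7, 233 and 245 CPM in tdTomato- cells (-2.91 ± 0.35, FDR 0.00011). The retinaldehyde-binding protein rlbp1a had 111, 176 and 347 CPM in LWS1 cones and 41.8, 149 and 95.3 CPM in LWS2 cones, against 605, 1419 and 1218 CPM in tdTomato- cells (-2.94 ± 0.40, FDR 0.000256). The apolipoprotein apoeb had 162, 325 and 369 CPM in LWS1 cones and 89.9, 217 and 135 CPM in LWS2 cones, against 2552, 3207 and 2811 CPM in tdTomato- cells (-3.80 ± 0.31, FDR 6.6e-06). Carbonic anhydrase cahz (-3.44 ± 0.32), metallothionein mt2 (-3.42 ± 0.26), the prostaglandin D2 synthase gene ptgdsb.2 (-4.81 ± 0.38) and the water channel aqp1a.1 (-4.46 ± 0.54) were lower without overlap. The same held for the intermediate filament gfap (-2.55 ± 0.43, FDR 0.00127), though not past the threshold once libraries were thinned to the smallest. The 1 member that was higher (2 without LWS1 replicate 2) was the glutamate transporter slc1a2a, with 949.9, 1094 and 1200 CPM in LWS1 cones and 506, 575 and 522 CPM in LWS2 cones, against 167, 318 and 223 CPM in tdTomato- cells (1.67 ± 0.26, FDR 0.000739). Its paralogue slc1a2b had 25 to 240.4 CPM in LWS and 1172 to 1522 CPM in tdTomato- libraries (-3.81 ± 0.45, FDR 9.09e-05). The 4 retinoid genes called lower of 19 tested were rlbp1a and crabp1a, which are also in the glial list, the retinol dehydrogenase rdh10a (-3.76 ± 0.41) and RGR (-2.92 ± 0.53), and without LWS1 replicate 2 or 3, 7 were lower. In that list 0 were higher (8.33% of all features were lower and 3.90% higher), at most 1 with single libraries left out. The retinoid list's median log2 fold change was -0.79.

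**Figure D5:**
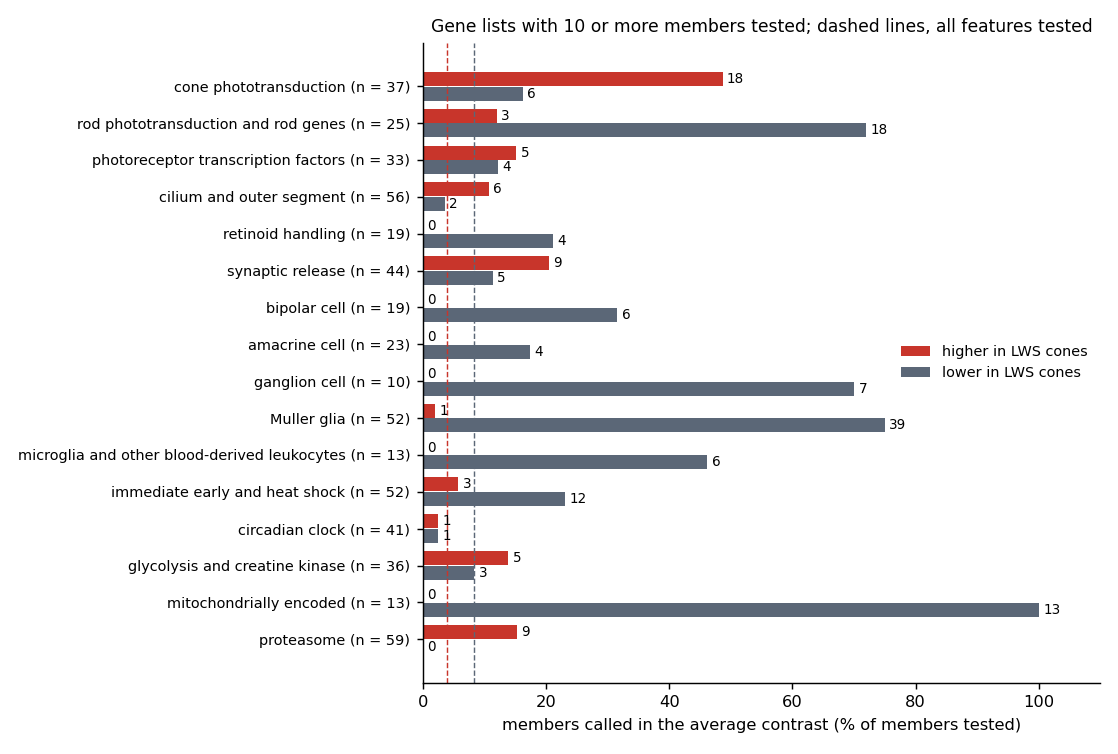
Share of tested members called higher (red) or lower (dark grey) in LWS cones, for gene lists with 10 or more members tested, with the number called beside each bar. Dashed lines mark the share of all 9700 features (3.90% higher, 8.33% lower): Muller glia (39 of 52) and rod genes (18 of 25) lie far above the line for lower, and cone phototransduction (18 of 37) above that for higher.

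Marker genes of the retina's other neurons were lower (8.33% of all features) or not called, and 0 were higher (1 amacrine feature without LWS1 replicate 2 and 1 ganglion feature without LWS1 replicate 3). The filter on low counts left 19 of 38 bipolar, 23 of 58 amacrine and 5 of 20 horizontal features. It left 10 of 42 ganglion and 13 of 49 microglia and leukocyte features. Markers could pass it through tdTomato- libraries alone, so lower calls are partly built in. Without the filter, 7 of 37 bipolar, 4 of 51 amacrine and 7 of 36 ganglion features were lower (1458 of all 22419). Then 2 amacrine and 1 ganglion feature were higher. Lower in each cone type were 1 of 19 bipolar, 2 of 23 amacrine, 1 of 5 horizontal and 3 of 10 ganglion cell features. The same held for 3 of 13 microglia and leukocyte and 0 of 7 oligodendrocyte features, against 3.82% of all features. Of 19 bipolar cell features 6 were lower, among them pcp4a with 6.4, 4.5 and 3.12 CPM in LWS1 cones and 0.367, 4.43 and 4.73 CPM in LWS2 cones, against 104, 76.1 and 60.7 CPM in tdTomato- cells (-4.26 ± 0.50, FDR 8.18e-05). This count was 3 without LWS2 replicate 3, and 2 and 1 without tdTomato- replicates 2 and 3. Of 23 amacrine cell features 4 were lower, SIX3 (-3.80 ± 0.67, FDR 0.00177), six3b (-3.36 ± 0.55, FDR 0.000957), pax6b (-2.04 ± 0.59) and PAX6 (-1.91 ± 0.56). The amacrine list's median log2 fold change was -0.05, against 0.04 over all features. PAX6 was called in LWS2 cones and not in LWS1 cones. Both pax6 calls were lost without LWS1 replicate 1, LWS2 replicate 1 or 3, or tdTomato- replicate 2 or 3, which left 2 features, and pax6b also without LWS1 replicate 2 or tdTomato- replicate 1. The horizontal cell gene PROX1 was 1 of 5 features and was lower (-2.93 ± 0.65, FDR 0.00793), at 0 to 6.4 CPM in LWS and 21.9 to 29.7 CPM in tdTomato- libraries, and 2 were lower without any 1 of the LWS1 libraries or without tdTomato- replicate 1. Of 10 ganglion cell features 7 were lower, among them rbpms2b (-2.84 ± 0.53, FDR 0.00264) and sncga (-2.55 ± 0.41, FDR 0.000862), which overlapped through tdTomato- replicate 1, and 4 were lower without tdTomato- replicate 2. Of 13 microglia and leukocyte features 6 were lower, among them the actin-bundling gene lcp1 (0 to 2.91 CPM in LWS and 10.2 to 40.8 CPM in tdTomato- libraries, -3.18 ± 0.69, FDR 0.00666) and the MHC light chain b2m (-3.02 ± 0.43, FDR 0.00035), and 3 were without tdTomato- replicate 2. Few features of the remaining lists were tested. Lower were 3 of 7 for oligodendrocytes (SOX10, mbpa and GPM6B), 2 of 6 for RPE (RGR and trpm1b), 2 of 8 for vascular cells (notch3 and pdgfrb), 1 of 4 for erythrocytes (cahz) and 1 of 2 for lens crystallins (cryba4). Of these, cahz and notch3 are also in the glial list and trpm1b in the bipolar list. The oligodendrocyte count was 0 without LWS2 replicate 3 or tdTomato- replicate 3, and 1 without LWS1 replicate 1, LWS2 replicate 1 or tdTomato- replicate 2, and trpm1b was lost without tdTomato- replicate 3. The erythrocyte count was 2 without LWS1 replicate 2, LWS2 replicate 2 or tdTomato- replicate 1. The 1 vascular feature called higher, the matrix Gla protein gene mgp (2.41 ± 0.69), was called in LWS2 cones and not in LWS1 cones, and was lost without LWS1 replicate 1, LWS2 replicate 3 or tdTomato- replicate 2 or 3.

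Some immediate early and stress genes were lower in LWS cones. Of 52 immediate early and heat shock features tested, 12 were lower and 3 higher (8.33% and 3.90% of all features), and 8 were lower in each cone type (3.82% of all features). The count of 3 higher is near the share of all features. The AP-1 gene fosab had 24.4, 25.2 and 24.9 CPM in LWS1 cones and 19.4, 27.5 and 15.8 CPM in LWS2 cones, against 245, 203 and 202 CPM in tdTomato- cells (-3.24 ± 0.26, FDR 6.6e-06). The stress-induced ddit4 had 2.94 to 12.5 CPM in LWS and 89 to 171 CPM in tdTomato- libraries (-4.52 ± 0.42, FDR 2.06e-05), and junba (-2.79 ± 0.47), junbb (-2.53 ± 0.32) and the small heat shock gene hspb1 (-2.93 ± 0.35) were lower without overlap. The 3 higher were ddit3 (2.47 ± 0.57), ATF3 (2.70 ± 0.81) and HSPA4 (1.3 ± 0.37), none of them called in LWS1 cones. In this list 9 were higher without tdTomato- replicate 1, 0 without tdTomato- replicate 2, and 1 without LWS2 replicate 1 or 3, and the ATF3 call was also lost without LWS1 replicate 2 or tdTomato- replicate 1 or 3, and that of HSPA4 without LWS2 replicate 2. Of 59 proteasome features, 9 were higher and 0 lower in the average (3.90% and 8.33% of all features), but 0 were higher in each cone type. Between the cone types, 10 of the 59 were called different (LWS2 over LWS1, against 0.649% of all features). The LWS libraries all lay above the tdTomato- libraries for only 2 of the 59, psmd12 among them, and below them for 1 (7.82% and 8.10% of all features). The example psmd12 had 57.6, 50.4 and 98.2 CPM in LWS1 cones and 172, 157 and 155 CPM in LWS2 cones, against 7.42, 45.9 and 47.2 CPM in tdTomato- cells (1.48 ± 0.40, FDR 0.0249). Without LWS2 replicates 1 and 3 and tdTomato- replicate 2, the call of psmd12 in the average was lost and the proteasome count was 2, 3 and 3. The paper reports proteasome transcripts as enriched in LWS2 over LWS1 cones. It proposes misfolding or aggregation of dsRedExpress, the RFP of the LWS2 cones, as a possible reason, which was not tested here. Of 41 circadian clock features, 1 was higher (per1b, 1.33 ± 0.35) and 1 lower (csnk1db, -1.18 ± 0.27), against 3.90% and 8.33% of all features. Neither count exceeded the share of all features, and 0 were higher and 0 lower in each cone type. The counts were 5 higher and 3 lower without tdTomato- replicate 1, 3 higher without LWS1 replicate 3, 0 higher without tdTomato- replicate 2 or 3 and 0 lower without tdTomato- replicate 2.

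A few genes differed between the cone types within the shared pattern. The more abundant feature of the transducin subunit gngt2a was higher by 2.43 ± 0.27 in LWS1 cones over tdTomato- cells and by 0.89 ± 0.26 in LWS2 cones, which fell short of the call (FDR 0.0428), and its LWS2 over LWS1 difference was -1.54 ± 0.26 (FDR 0.0199). The other feature gave -1.69 ± 0.33 (FDR 0.0349). The creatine kinase ckba had 9.31, 7.2 and 7.79 CPM in LWS1 cones and 91.7, 55.7 and 94.6 CPM in LWS2 cones, against 0, 1.75 and 1.92 CPM in tdTomato- cells, so it was called higher in each while LWS2 exceeded LWS1 by 3.29 ± 0.45 (FDR 0.00865). The potassium-chloride cotransporter slc12a7a had 32.6, 29.7 and 10.9 CPM in LWS1 cones and 2.57, 1.17 and 2.48 CPM in LWS2 cones, against 0, 0.437 and 0 CPM in tdTomato- cells (-3.56 ± 0.70, FDR 0.0352). For slc12a7a the tdTomato+ cones had 0.717, 0.855 and 0 CPM, all below the lowest LWS library. The number of called features that differed between cone types was 58 without tdTomato- replicate 1, 3 and 4 without LWS1 replicates 2 and 3, 0, 4 and 0 without LWS2 replicates 1, 2 and 3, and 6 and 7 without tdTomato- replicates 2 and 3.

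The tdTomato+ libraries, on the same scale, show how far the other line's LWS cones share these levels. Of the 175 features higher in each cone type, the mean tdTomato+ level was within the range of the 6 LWS libraries for 103 (58.9%), below all of them for 69 (39.4%) and above for 1.71%. Of all 9700 features tested, 77.2% were within the range, 6.71% below and 16.1% above. Of the 371 lower in each cone type, 245 (66.0%) were within, 32.1% above and 7 (1.89%) below. The features were chosen by their LWS levels, so these shares are a description. Among single genes, tdTomato+ cones had 743, 2032 and 720.1 CPM of opn1sw1, higher than LWS libraries and lower than tdTomato- libraries, and 20765, 8034 and 7132 CPM of arr3a. For rx2 they had 82.5, 32.5 and 38.5 CPM and for apoeb 52.4, 315 and 172 CPM.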

How the data were processed

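Bulk RNA-Seq was analysed for 9 libraries, with 3 more set beside them. Per the labels and the study's methods, the authors trimmed reads with Trimmomatic 0.36, checked them with FastQC 0.11.5, mapped or quantified them against GRCz11 by STAR and by Salmon (0.13.1 in the submitters' processing notes), and deposited raw counts per Ensembl gene. The study's methods give another Salmon version and import into R by tximport, without saying outright which program gave the deposited counts. Whether strand was used is not given in the sources used here, so near-identical copies and overlapping genes are uncertain. The authors' own comparison tables (fold changes and p-values) were used for gene names only, and 12 of their per-sample columns were not used. Of 30258 features, 23649 had a name, 11241 of them an ortholog name in capitals.

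The counts were fitted in R 4.3.3 with edgeR 4.0.16 (TMM normalization, filterByExpr with a minimum count of 10, quasi-likelihood test, Benjamini-Hochberg adjustment) for LWS1, LWS2 and tdTomato- libraries together, with 6 residual degrees of freedom. The SE of a log2 fold change was derived from its F statistic. Alternatives used DESeq2 1.42.0, limma 3.58.1 and other settings. Shares were compared by exact permutation tests in scipy 1.17.1, and intervals and floors cover counting error only. The code was tested on simulated data. Of changes simulated at a log2 fold of 2, 40.5% were called in the average and 17% in both cone types. At a log2 fold of 3 these were 72.5% and 58%. At a log2 fold of 1, the size of the call's own threshold, 0 of 200 were called in either. False calls in the average numbered 7 and 8 at log2 folds of 2 and 3, and 0 and 2 in both cone types. A feature that did not pass may still differ between the groups.

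Named by rule were opn1lw1, opn1lw2 and thrb, the 12 largest changes in each direction without overlap, every tested cone, cone opsin and rod gene, the 3 smallest p-values per list, and the 3 largest differences each way between cone types. The largest changes and differences were ranked among called features with a gene name only. CRX, LHX9, SAMD11, neurod4, cplx4a, ldhbb, pygmb, PAX6, gfap, glulb, aqp1a.1, slc1a2a, slc1a2b, junba, junbb, ATF3, ddit3, HSPA4, psmd12 and those named to complete a small count were chosen after their values were seen. Single-gene results for 1 rod gene are not reported here. The members and lists were chosen with earlier results of these data known. No sequences were used here, since no genome came with the files.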

Additional observations from a re-analysis of the deposited data

Results flagged for a closer look

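In 8 named features called in the average, the LWS2 and LWS1 effects differed by the test of the LWS2 over LWS1 difference itself (edgeR, FDR under 0.05). On the log2 scale ckba differed by 3.29 ± 0.45, mgp by 3.37 ± 0.67, slc12a7a by -3.56 ± 0.70, gngt2a by -1.54 ± 0.26 and -1.69 ± 0.33 in its 2 features, and mt-nd3 by -1.50 ± 0.29. The mitochondrial gene mt-nd3 had 2352, 4138 and 4713 CPM in LWS1 cones and 1310, 1274 and 1371 CPM in LWS2 cones, against 15186, 18030 and 15173 CPM in tdTomato- cells. A further pair of features gave large differences because every LWS1 library had 0 counts: rsl1d1 with 8.44 and utp6 with 7.04, fitted values that depend on the prior count. For rsl1d1 the other feature of this name went the other way, with 10.47, 12.6 and 18.7 CPM in LWS1 cones and 0 counts in all LWS2 libraries, so how reads were divided between the copies is uncertain. The opn1lw1 and opn1lw2 share of the tdTomato+ libraries, which entered no test here, was at least 0.977%, above the 0.358% of the highest tdTomato- library. Groups held 3 libraries each, so no test for a library standing apart within a group was made.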

How the results depend on the processing

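The higher count in the average (378) was 602 with limma-voom, 609 without a filter on low counts and 145 with libraries thinned to the smallest, and 221 to 483 when single libraries were left out. The lower count (808) was 1458 without a filter and 284 thinned. The count higher in each cone type (175) was 288 with limma-voom, 293 without a filter, 102 with all 4 groups in one fit and 56 thinned, and 78 to 268 with single libraries left out. The count lower in each cone type (371) was 641 without a filter and 110 thinned, and 208 to 531 with single libraries left out. The 17 features that differed between cone types were 66 with DESeq2, 67 with limma-voom, 99 without a filter, 3 with all 4 groups in one fit and 0 thinned, and 0 to 58 with single libraries left out. Fewer counts remain after thinning, and fewer features are tested with a filter. For the other changes the cause was not tested. The fit with LWS libraries pooled as 1 group gives no value for counts that need both cone types. Libraries of the same replicate number were compared by correlating their deviations from the group means. For LWS1 and LWS2 the correlations were 0.164, 0.165 and -0.00687 in replicates 1, 2 and 3, and for pairs with tdTomato- cells -0.0387 to 0.0459. Whether LWS1 and LWS2 libraries of one number came from the same fish is not given, and the main fit did not pair them. With the replicate block 346 features were higher, 708 lower, 171 higher in each cone type and 355 lower in each cone type. In that fit 13 differed between cone types, 10 of them shared with the main fit.

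Of the gene values named or chosen, 4148 under the alternatives kept their direction and call, 347 lost the call, 32 gained one and 20 reversed. The log2 fold change of pde6ha (0.0172) was -0.0191 with DESeq2, -0.0192 with RLE, -0.0521 with a filter at 10 CPM, -0.00286 without mitochondrially encoded genes and -0.0914 thinned, and -0.0858 to 0.23 with single libraries left out. That of GUCA1A (-0.03) was 2.07 with limma-voom, 0.13 without a filter, 0.43 with the replicate block and 0.0786 pooled, and -0.80 to 2.60 with single libraries left out. That of cngb1a (0.16) was -0.17 thinned and -0.27 to 1.17 with single libraries left out, and that of CRYBA1 (-0.62) -0.96 to 0.24 with single libraries left out. The called lower values of rsl1d1 and SAMD11 were 0.19 with counts summed by symbol and 0.00278 thinned. Most calls were lost without tdTomato- replicate 2 (53), when thinned (45) and without tdTomato- replicate 3 (40).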

Other observations

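Outside the gene lists, further genes were higher in LWS cones without overlap (chosen after their values were seen). The melanopsin opn4.1 had 586, 582 and 690.2 CPM in LWS1 cones and 296, 370.4 and 344 CPM in LWS2 cones, against 104, 74.8 and 83.6 CPM in tdTomato- cells (log2 fold change 2.41 ± 0.26, edgeR FDR 4.86e-05). The opsin opn6a had 97.7, 214 and 189 CPM in LWS1 cones and 139, 125 and 108.4 CPM in LWS2 cones, against 7.42, 36.7 and 22.3 CPM in tdTomato- cells (2.51 ± 0.41, FDR 0.000861). The outer segment actin-bundling gene fscn2b ranged over 659 to 844 CPM in LWS and 85.3 to 195 CPM in tdTomato- libraries (2.24 ± 0.29, FDR 0.000174), and the potassium channel modifier kcnv2b over 68.1 to 238 CPM in LWS and 10.9 to 26.2 CPM in tdTomato- libraries for 1 of its features (2.92 ± 0.37, FDR 0.000161). The other kcnv2b feature overlapped between groups (2.196 ± 0.55, FDR 0.0164) and was not called in LWS1 cones. The interphotoreceptor matrix gene impg1a gave 1.82 ± 0.32 (FDR 0.00168). The G protein beta subunit gnb5b, a partner of RGS9, gave 1.81 ± 0.27 (FDR 0.000421), and the intermediate filament gene synm 3.71 ± 0.47 (FDR 0.000151). Apart from that feature, all of these were called in both cone types.

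The following genes outside the lists were lower in LWS cones, also chosen after their values were seen. The collagen gene col18a1a had 0 to 7.2 CPM in LWS libraries and 81.6 to 103 CPM in tdTomato- libraries (-4.64 ± 0.59, FDR 0.000166), and col15a1b 8.81 to 45.9 CPM in LWS and 312 to 543 CPM in tdTomato- libraries (-4.31 ± 0.42, FDR 3.38e-05). The Notch modifier lfng gave -4.56 ± 0.49 (FDR 4.86e-05), the growth factor tgfb3 -4.32 ± 0.50 (FDR 7.64e-05) and the BMP target id1 -4.19 ± 0.43 (FDR 3.94e-05). The astroglial membrane gene mlc1 had 2.33 to 14.9 CPM in LWS and 132 to 155 CPM in tdTomato- libraries (-4.59 ± 0.46, FDR 3.38e-05), and the serine synthesis enzyme phgdh gave -3.52 ± 0.38 (FDR 5.01e-05). The groups did not overlap for these genes.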
